A study of Chlamydomonas reinhardtii with 9 samples.

Results

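Plastocyanin (CHLRE_03g182551v5) and the photosystem I subunits PsaF (CHLRE_09g412100v5) and PsaD (CHLRE_05g238332v5) are 3 nuclear genes of the green alga Chlamydomonas reinhardtii. They were taken by their spot numbers, 100 to 102 for plastocyanin, 118 to 120 for PsaF and 115 to 117 for PsaD, a rule that uses no measured value, although earlier results of these data were known when the genes were chosen. They are 3 of the 71 probes on the array, where a probe is a set of 3 consecutive spots, and 3 of the 11 probes that carry a nuclear locus tag in the platform annotation. The arrays compared total RNA of 2 strains at a time, on 2 channels. In 3 arrays the nonphotosynthetic mutant mcd1-1 was set against the wild type P17, in another 3 the nonphotosynthetic mutant mcd1-2 was set against P17, and in the last 3 the photosynthetic suppressor mcd2-1 was set against mcd1-2. The labels describe the samples with the keyword petD mutant, give no other allele for the suppressor, and give no culture conditions. They number the arrays of a comparison 1 to 3 without saying whether these were separate cultures, so the errors and p-values below cover the spread between arrays, which may be technical.

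In the photosynthetic membrane, electrons pass from photosystem II through the cytochrome b6f complex to photosystem I. The chloroplast gene petD encodes a core subunit of cytochrome b6f, and MCD1 is a nuclear gene needed in Chlamydomonas for a stable petD mRNA. Plastocyanin is the small copper protein in the thylakoid lumen that accepts electrons from cytochrome b6f and carries them to photosystem I. PsaF is the photosystem I subunit on which plastocyanin docks at the lumen side, and PsaD forms part of the docking site for ferredoxin on the opposite, stromal side. The 3 proteins thus act directly downstream of the complex whose subunit petD encodes, and the comparisons ask whether their mRNAs differed in strains labelled as petD mutants and in a suppressor that regained photosynthesis.

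All values are log ratios of channel 1 over channel 2, taken as log2, averaged over the spots of a probe and given relative to the median probe of their array. On this scale 0 means that the gene stood with the median probe, and a difference of 1 is a factor of 2. The direction follows the order of the labels and is likely, not certain. It remains unsettled for the suppressor, whose replicates 1 and 2 had a correlation of -0.314 over the 71 probes. Suppressor means are therefore also given with the sign of replicate 1 turned. The other suppressor pairs did not agree closely either. Replicates 1 and 3 correlated at -0.109, and replicates 2 and 3, a pair that the turn does not change, at 0.125. Pairs of mcd1-1 arrays correlated between 0.541 and 0.898, and pairs of mcd1-2 arrays between 0.552 and 0.725. In total RNA of whole cultures, less transcript per cell and fewer cells that make it cannot be told apart.

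Of the 81 possible spots of the 3 genes on the 9 arrays, 76 held a value. Only 1 spot remained for plastocyanin and 1 for PsaF on mcd1-1 replicate 3, and 2 for PsaF on suppressor replicate 3. Where all 3 spots had a value, they lay close together: in 22 of 24 sets the SD over spots was under 0.2 on the log2 scale, with a median of 0.0743. Both wide sets belonged to plastocyanin. On suppressor replicate 3 its spots stood, as deposited, at -0.53, -13.40 and -0.49, which gave a spot SD of 7.44. On mcd1-1 replicate 2 they stood at -1.496, 0.08 and 0.02, a spot SD of 0.893. In each case 1 spot lay far below a pair that matched. Over all probes, 14 of 616 complete sets held a spot that lay more than 1 from the mean of the other two, at over 2 times the distance between those. The spot at -13.40 was 1 of 2 below -10 in the whole table. Every plastocyanin value that includes it is given again without it.

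**Figure D1:**
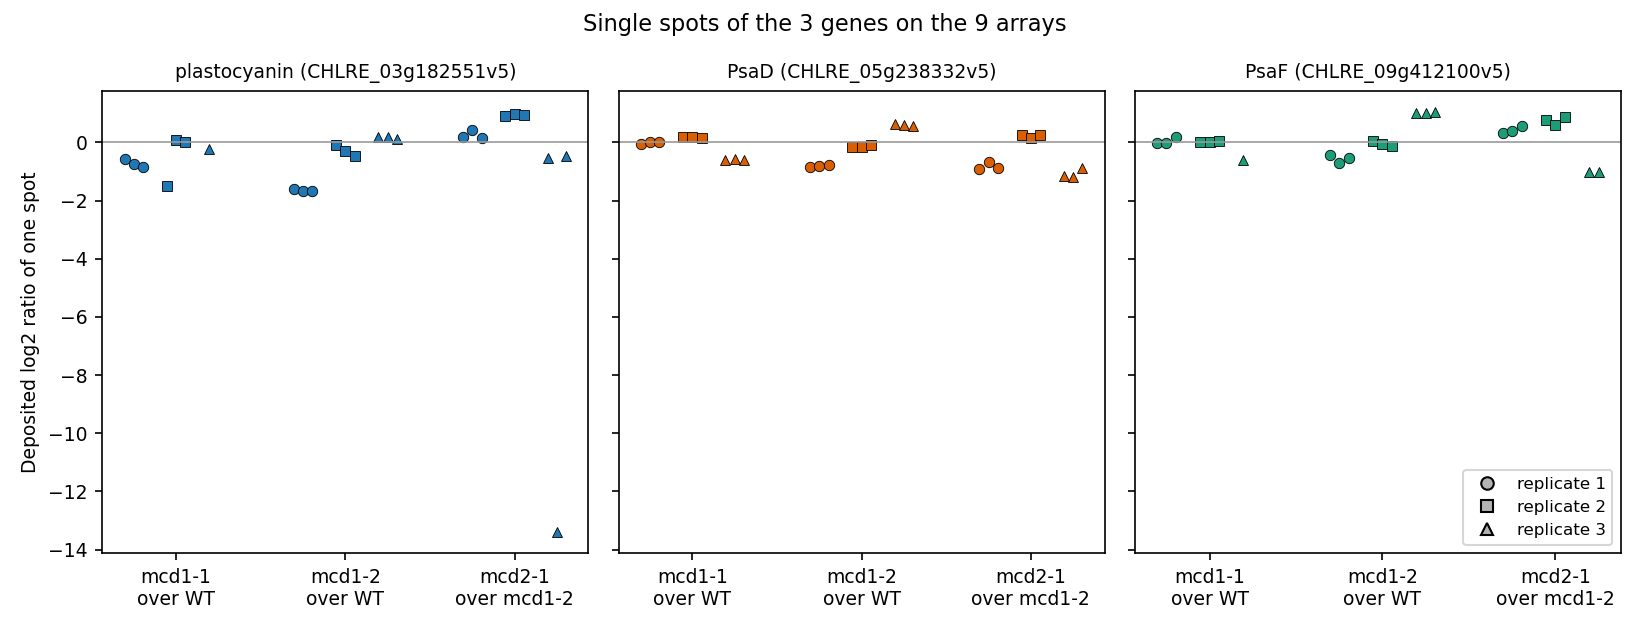
Deposited log2 ratio of every single spot (y axis) of plastocyanin, PsaD and PsaF on the arrays of the 3 comparisons (x axis), with the marker shape giving the replicate number. The spots of a set overlap nearly everywhere, except for plastocyanin on mcd1-1 replicate 2 and for its single spot at -13.40 on suppressor replicate 3.

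In mcd1-1 none of the 3 genes rose or fell past the test relative to wild type. All 3 means lay slightly below the median probe, at -0.33 for plastocyanin, -0.04 for PsaF and -0.01 for PsaD. Limma called 0 of the 3 after Benjamini-Hochberg adjustment over 71 probes, against 1.41% of all probes. An unadjusted limma p under 0.05 was found for 0 of 3, against 6 of all 71 probes.

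The plastocyanin ratios in mcd1-1 over wild type were -0.58, -0.43 and 0.02 on replicates 1 to 3. Replicates 1 and 2 were low and replicate 3, which rested on 1 spot, stood at the median probe. Replicate 2 was low only through its spot at -1.496. The other 2 spots averaged 0.05 as deposited, above the median of that array at -0.03. The mean of -0.33 ± 0.31 (SD, n = 3) corresponds to 0.794-fold, between 95% limits of the limma fit of 0.310-fold and 2.03-fold (adjusted p = 0.965). The limits were widened by the spot at -13.40 on another array, since the fit gives a probe 1 spread in all groups. Without that spot they were 0.457-fold and 1.38-fold (limma adjusted p = 0.741). With the median of the 3 spots in place of their mean, which set aside the spot at -1.496, plastocyanin stood at -0.20.

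PsaF, the docking subunit for plastocyanin, had ratios of 0.18, 0.07 and -0.37 in mcd1-1 over wild type. PsaD, on the ferredoxin side, had 0.12, 0.20 and -0.36. Both genes stood slightly above the median probe on replicates 1 and 2 and below it on replicate 3. PsaF averaged -0.04 ± 0.29 (SD, n = 3), between 95% limits of 0.542-fold and 1.74-fold (limma adjusted p = 0.987). PsaD averaged -0.01 ± 0.30 (SD, n = 3), between 95% limits of 0.572-fold and 1.71-fold (limma adjusted p = 0.987). Among the 71 mean ratios, counted from the lowest, plastocyanin was at rank 19, PsaF at rank 29 and PsaD at rank 33.

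**Figure D2:**
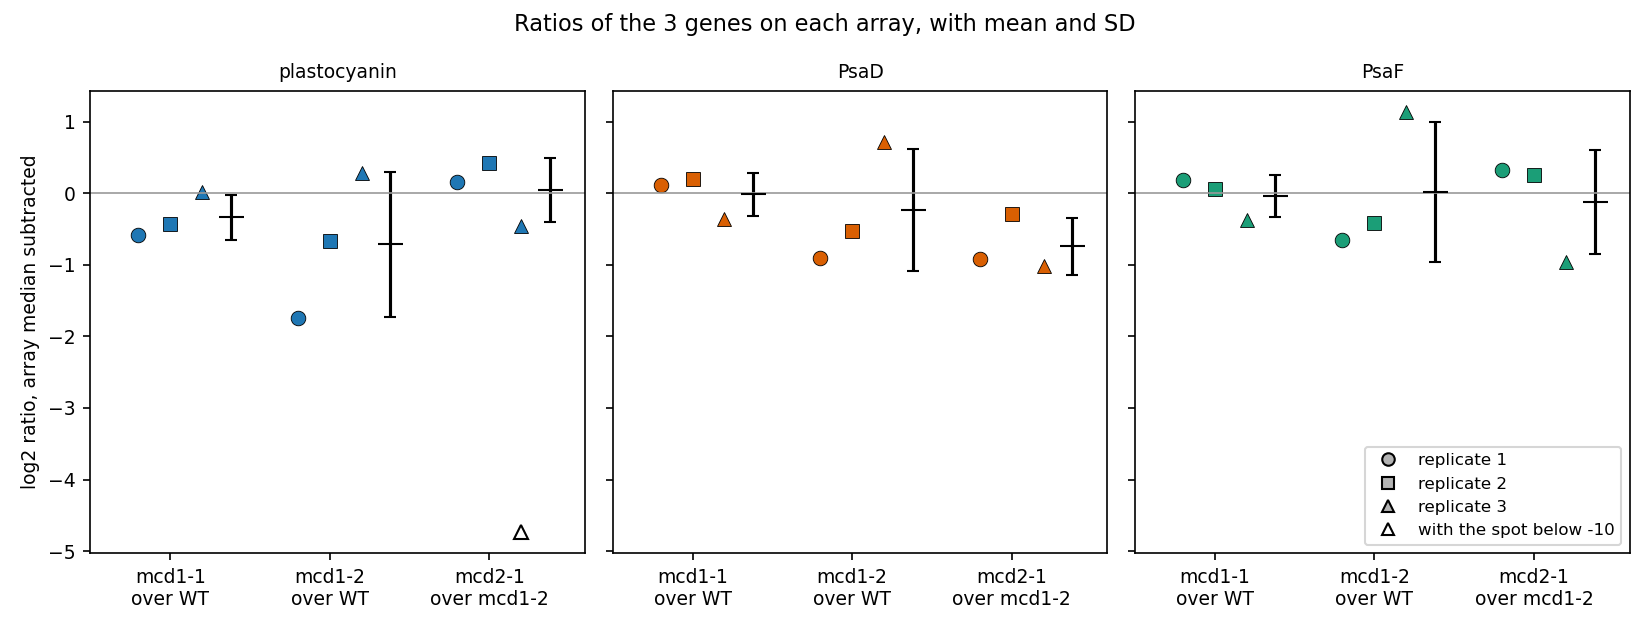
Log2 ratio of each gene on each array after subtraction of the array median (y axis) in the 3 comparisons (x axis), without single spots below -10, with the mean and SD of 3 arrays beside the points. The open triangle at -4.74 is plastocyanin on suppressor replicate 3 with that spot included, and in mcd1-2 all 3 genes are below 0 on replicates 1 and 2 and above 0 on replicate 3.

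In mcd1-2 the arrays disagreed about all 3 genes, and none passed the test. Plastocyanin had the lowest mean, at -0.71, PsaD stood at -0.23 and PsaF at 0.02. Limma called 0 of 3, against 5.63% of all probes, and 0 of 3 had an unadjusted p under 0.05. On replicate 1 all 3 genes were low, on replicate 2 they were below the median probe, and on replicate 3 they were above it.

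The plastocyanin ratios in mcd1-2 over wild type were -1.75, -0.66 and 0.28. On replicate 1 this was the third lowest of 71 probes, while on replicate 3 plastocyanin stood at rank 40 of 66 from the lowest. The mean was -0.71 ± 1.01 (SD, n = 3), or 0.611-fold between 95% limits of 0.239-fold and 1.56-fold (limma adjusted p = 0.857). Leaving out the low spot of the suppressor array narrowed the limits to 0.352-fold and 1.06-fold, and limma's adjusted p was then 0.511. Its mean held rank 5 of 71 from the lowest. Single arrays decided its size: it was -0.19 without mcd1-2 replicate 1 and -1.20 without replicate 3.

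PsaF had ratios of -0.65, -0.42 and 1.14 in mcd1-2 over wild type, and PsaD had -0.90, -0.53 and 0.72. For both genes replicate 3 lay on the opposite side of the median probe from the other two. PsaF averaged 0.02 ± 0.98 (SD, n = 3), between 95% limits of 0.567-fold and 1.82-fold (limma adjusted p = 0.968). PsaD averaged -0.23 ± 0.85 (SD, n = 3), between 95% limits of 0.492-fold and 1.47-fold (limma adjusted p = 0.857). Without mcd1-2 replicate 3 the means were -0.54 for PsaF and -0.71 for PsaD, and without replicate 1 PsaD stood at 0.10 and PsaF at 0.36.

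The spread between mcd1-2 arrays did not come with a spread between spots. The 3 spots of PsaF on replicate 3 had an SD of 0.0350, and those of plastocyanin on replicate 1 an SD of 0.0331. The widest set of the 3 genes on the mcd1-2 arrays, plastocyanin on replicate 2, had a spot SD of 0.194. The arrays, in contrast, ranged over 2.02 for plastocyanin, 1.79 for PsaF and 1.62 for PsaD. Counted from the widest of 71 probes, the SD between mcd1-2 arrays put plastocyanin at rank 6, PsaF at rank 7 and PsaD at rank 11, where the median probe had an SD of 0.444. In mcd1-1 the same genes had ranks of 44, 48 and 45. Replicate 3 of mcd1-2 is 1 of 3 arrays that lack the same 4 probes, with mcd1-1 replicate 2 and suppressor replicate 3. In an alternative fit these 3 arrays formed 1 block and the remaining arrays another, with an estimated correlation within blocks of -0.116. None of the 3 genes passed the test in mcd1-2 there, with limma adjusted p of at least 0.826.

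For the difference between the mutants, the ratios of mcd1-2 and mcd1-1 over wild type overlapped for each of the 3 genes. Over all probes with 6 values, 16.7% did not overlap. The difference, mcd1-2 minus mcd1-1, was -0.38 for plastocyanin, 0.07 for PsaF and -0.22 for PsaD. Limma called 0 of 3 (adjusted p between 0.958 and 0.997), against 1.41% of all probes, and an exact two-sided permutation test of the arrays gave p = 0.7 for plastocyanin and PsaD and p = 1 for PsaF, where the smallest possible p is 0.1. For PsaD the 95% limits of this difference were 0.396-fold and 1.87-fold, so a difference within them is not excluded. Both mutants were measured against the same wild type strain.

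In the suppressor over mcd1-2, PsaD was below the median probe on 3 of 3 arrays, PsaF was not, and the plastocyanin mean turned on 1 spot. The means were -1.38 for plastocyanin with that spot and 0.05 without it, -0.12 for PsaF and -0.74 for PsaD. Limma called 0 of 3, against 1.41% of all probes. Plastocyanin with the low spot had an unadjusted p under 0.05, at 0.0459, and without it 0 of 3 genes did.

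The plastocyanin ratios in the suppressor over mcd1-2 were 0.16, 0.43 and -4.74 on replicates 1 to 3. Without the spot at -13.40, replicate 3 stood at -0.45. Replicates 1 and 2 were thus above the median probe and replicate 3 below it in either case. The mean was -1.38 ± 2.91 (SD, n = 3, limma adjusted p = 0.526) with the spot, the lowest of all 71 means. Without the spot it was 0.05 ± 0.45 (SD, n = 3), at rank 38, between 95% limits of 0.595-fold and 1.79-fold (limma adjusted p = 0.934). With the sign of replicate 1 turned, the means were -1.49 with the spot and -0.06 without it.

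PsaF had ratios of 0.33, 0.26 and -0.95 in the suppressor over mcd1-2. As for plastocyanin, replicates 1 and 2 were above the median probe and replicate 3 was below it. The mean was -0.12 ± 0.72 (SD, n = 3), between 95% limits of 0.513-fold and 1.65-fold (limma adjusted p = 0.882). It was 0.29 without suppressor replicate 3, and -0.34 with the sign of replicate 1 turned.

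PsaD had ratios of -0.92, -0.29 and -1.001 in the suppressor over mcd1-2. All 3 arrays were below the median probe, which held for 10.6% of the probes with 3 values. The mean of -0.74 ± 0.39 (SD, n = 3) corresponds to 0.601-fold, between 95% limits of 0.347-fold and 1.04-fold (limma adjusted p = 0.526). It was at rank 6 of 71 from the lowest. The value depended on the unsettled direction: with the sign of replicate 1 turned the mean was -0.12. With each array left out in turn it lay between -0.96 and -0.60.

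**Figure D3:**
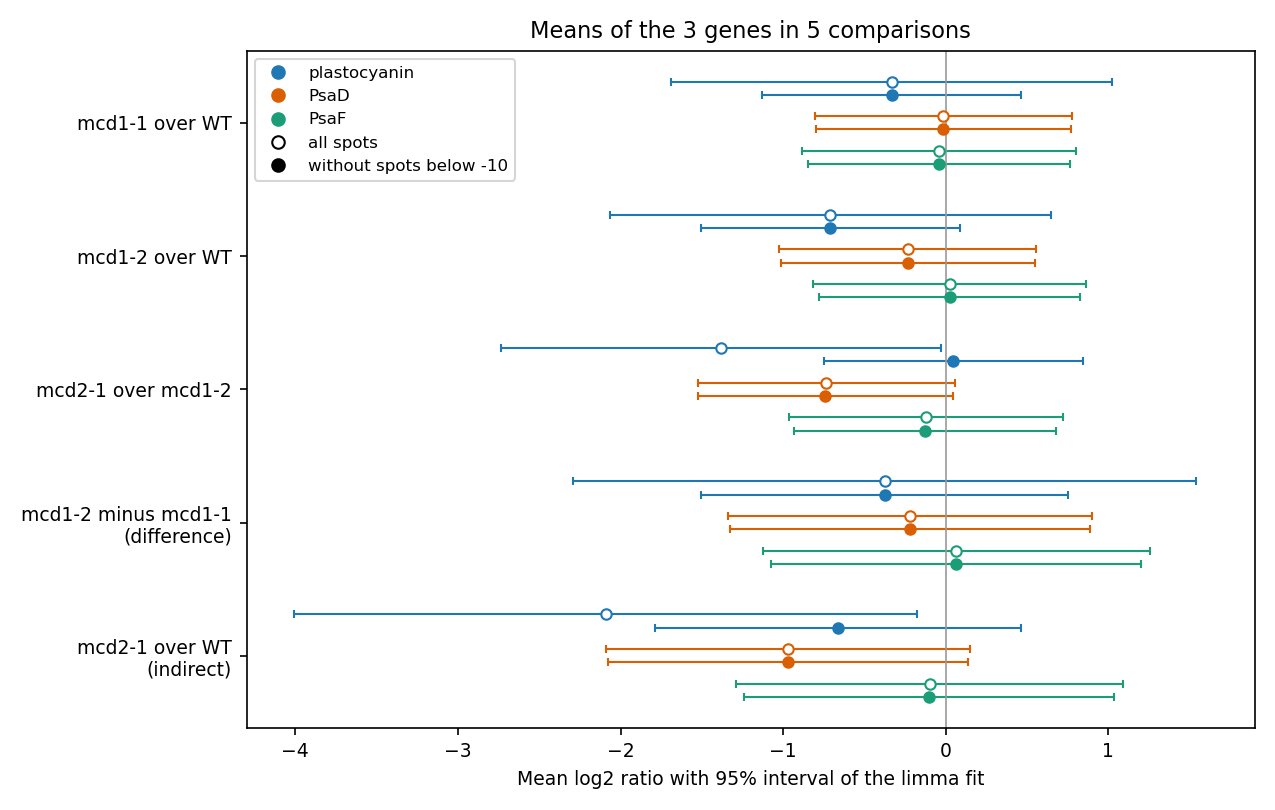
Mean log2 ratio with the 95% interval of the limma fit (x axis) for the 3 genes in 5 comparisons (y axis), with open points for all spots and filled points without single spots below -10. The only intervals that leave out 0 are those of plastocyanin in the suppressor comparison and in the indirect ratio, both with the spot at -13.40, and neither passed after adjustment.

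The indirect ratio of suppressor over wild type is the sum of the suppressor mean over mcd1-2 and the mcd1-2 mean over wild type. All 3 genes were below the median probe there, and limma called 0 of 3 after adjustment, against 1.41% of all probes. Plastocyanin stood at -2.09 with the low spot (limma adjusted p = 0.480), the only 1 of the 3 with an unadjusted p under 0.05, and at -0.66 without it (limma adjusted p = 0.754). PsaD stood at -0.97, or 0.511-fold between 95% limits of 0.235-fold and 1.11-fold (limma adjusted p = 0.611). PsaF stood at -0.10, between 95% limits of 0.410-fold and 2.13-fold (limma adjusted p = 0.999). Turning the sign of suppressor replicate 1 gave -2.20 for plastocyanin with the low spot and -0.77 without it, -0.36 for PsaD and -0.31 for PsaF. The call for plastocyanin changed without suppressor replicate 2, which leaves the array with the low spot as 1 of 2. There the limma adjusted p was 0.0381 at a value of -2.998, and without the spot at -13.40 as well it was -0.86 (limma adjusted p = 0.469).

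**Figure D4:**
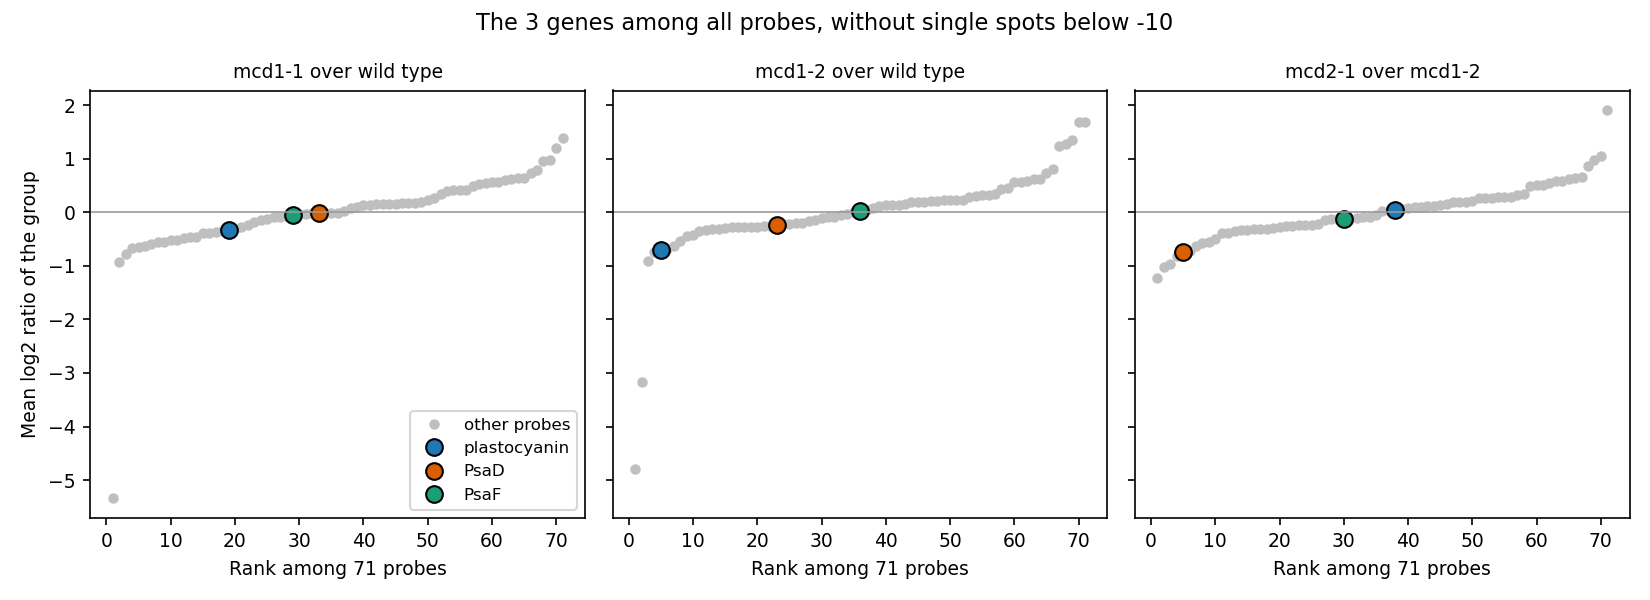
Mean log2 ratio (y axis) of all 71 probes in order of rank (x axis) in the 3 comparisons, without single spots below -10, with the 3 genes marked. In mcd1-1 the genes are at ranks 19, 29 and 33, with plastocyanin, at -0.33, close to the lower quartile of all probes at -0.34. Plastocyanin is at rank 5 in mcd1-2 and PsaD at rank 5 in the suppressor comparison.

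Set against each other on the same array, which removes the array median, the 2 photosystem I genes differed little in the mutants. PsaF minus PsaD was 0.07, -0.13 and -0.01 on the mcd1-1 arrays and 0.25, 0.10 and 0.42 on the mcd1-2 arrays. The ratios of the 2 genes thus lay within 0.42 of each other on all 6 mutant arrays, while each gene alone ranged over more than 1.6 in mcd1-2. How close other probe pairs lay on these arrays was not computed, so the closeness cannot be called particular to this pair. On the suppressor arrays PsaF minus PsaD was 1.24, 0.55 and 0.05. PsaF was the higher of the pair on 3 of 3 suppressor arrays, by 0.61 ± 0.60 (SD, n = 3). It was also the higher on 3 of 3 mcd1-2 arrays, by 0.26 ± 0.16 (SD, n = 3). An exact sign-flip test gave p = 0.25 for each, the smallest that 3 arrays allow. How many other probe pairs keep 1 sign on 3 arrays was not counted. The suppressor mean of this difference was -0.21 with the sign of replicate 1 turned.

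On the mcd1-1 arrays plastocyanin was below both photosystem I genes on replicates 1 and 2 and above both on replicate 3. On replicate 2 its mean included the spot at -1.496. The other 2 spots averaged 0.05 as deposited, against 0.03 for PsaF and 0.17 for PsaD. On replicate 3 plastocyanin and PsaF rested on 1 spot each. PsaF minus plastocyanin was 0.29 ± 0.60 there and PsaD minus plastocyanin 0.32 ± 0.60 (SD, n = 3 each), within the spread between arrays. Plastocyanin was below both photosystem I genes on all 3 mcd1-2 arrays. Both differences use the same plastocyanin values, and the share of other probe pairs with 1 sign was not counted here either. PsaF minus plastocyanin was 0.73 ± 0.44 and PsaD minus plastocyanin 0.48 ± 0.36 (SD, n = 3 each, exact sign-flip p = 0.25 for both, the smallest possible). In the suppressor over mcd1-2, with all spots, PsaD minus plastocyanin was 0.65 ± 2.68 and PsaF minus plastocyanin 1.26 ± 2.19 (SD, n = 3 each), both raised by replicate 3 with the spot at -13.40. Without that spot both means had the opposite sign. PsaD was then below plastocyanin on 3 of 3 arrays, and PsaD minus plastocyanin was -0.79 ± 0.26 (SD, n = 3, exact sign-flip p = 0.25). With the sign of replicate 1 turned that difference was -0.07. PsaF minus plastocyanin was then -0.17 ± 0.34 (SD, n = 3), within the spread between arrays.

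**Figure D5:**
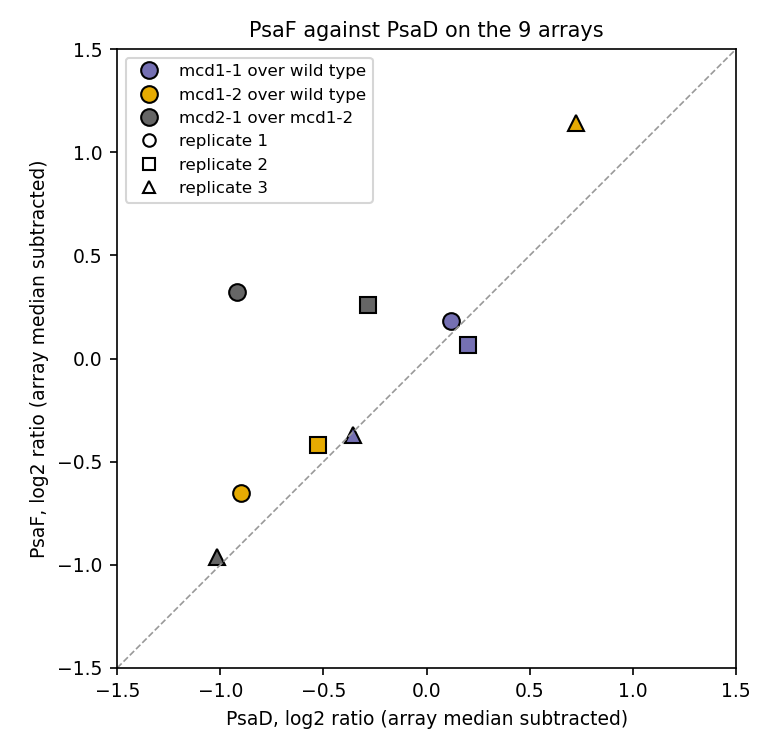
PsaF (y axis) against PsaD (x axis) on the 9 arrays, as log2 ratios after subtraction of the array median, with colours for the comparisons, shapes for the replicate numbers and a dashed line where both are equal. The 6 mutant arrays lie along the line, and suppressor replicate 1 lies farthest from it, with PsaF 1.24 above PsaD.

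Likeness of pattern was taken as Pearson's r over the 9 arrays without single spots below -10, among 65 other probes with a value on every array. These correlations describe 9 arrays in 3 comparisons that share strains and the centring. PsaD was most like the unnamed probe of spots 190 to 192 (r = 0.802, Spearman's rho = 0.717) and then PsaF (r = 0.765, rho = 0.583). The value for PsaF was 0.359 without the 2 arrays farthest from the PsaD median, so over the 9 arrays it rested on those. Over the 6 mutant arrays alone, r between PsaD and PsaF was 0.954. There it was 0.768 between PsaD and plastocyanin and 0.691 between PsaF and plastocyanin. For these 6 arrays no other pairs were computed, and no value without the farthest arrays. PsaF was most like the unnamed probes of spots 49 to 51 (r = 0.899) and spots 73 to 75 (r = 0.872), with PsaD at rank 3 and plastocyanin at rank 4 (r = 0.614). Without the 2 arrays farthest from the PsaF median, spots 49 to 51 kept r = 0.800 and spots 73 to 75 r = 0.548. Plastocyanin was most like spots 88 to 90 (r = 0.790) and CHLRE_07g326150v5 (r = 0.628), which fell to 0.261 and 0.094 without the 2 farthest arrays. PsaF followed at rank 3 and kept r = 0.609 without those 2 arrays. Over all 2145 pairs of the 66 probes the median r was -0.02, and 4.24% of pairs were above 0.7.

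The platform annotation names 8 other nuclear loci. None of these 8 passed limma's test in any of the 5 comparisons, with or without the spots below -10. Without those spots limma also called 0 of the 3 genes in each comparison, against 2.82% of all probes in mcd1-1, 8.45% in mcd1-2, 1.41% in the suppressor over mcd1-2, 1.41% in the difference between the mutants and 2.82% in the indirect ratio. In mcd1-1 over wild type all 8 means were below the median probe, from -0.65 for CHLRE_06g259900v5 to -0.01 for CHLRE_09g395950v5, with a median of -0.22 against -0.04 for the 3 genes described here and -0.01 for all probes. In mcd1-2 over wild type, 5 of 8 were below, with a median of -0.27 against -0.23 for the 3 genes and 0.02 for all probes. In the suppressor over mcd1-2, with all spots, 4 of 8 were below and the median was 0.03, against -0.74 for the 3 genes and -0.08 for all probes. Without spots below -10, 3 of 8 were below and the median was 0.22, against -0.13 for the 3 genes and 0.03 for all probes.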

How the data were processed

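RNA of 2 strains was compared on each of 9 arrays. The deposited table holds log2 ratios of the 2 channels for 213 spots. How the authors scanned, corrected, normalized and labelled the arrays is not given in the sources used here, and spot intensities were not used here, so no signal floor was set, and precision is limited by the number of arrays. The log base is taken from the values: one PsaD spot is at -0.584962501, log2 of 2/3 to every printed digit. The spots at -13.40 and -11.63 give inverse ratios of 10820.48 and 3171.52 in base 2, each a number of 2 decimals within the rounding of the printed digits. Whether the authors centred the deposited log2 ratios, and their direction, stays unknown.

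Spots were averaged by probe and each array's median over 71 probes, between -0.23 and 0.50, was subtracted. Each array had values on 197 to 213 spots. The consecutive sets of 3 follow the annotation. One limma 3.58.1 model in R 4.3.3 (eBayes, with 6 residual and 14.6 prior degrees of freedom) over 9 arrays tested each group mean against 0, the difference between the mutants and the indirect ratio. Tests were two-sided, p-values were adjusted over 71 probes by Benjamini-Hochberg, and adjusted p under 0.05 counted as past the test. Alternatives were the median of spots, no spots below -10, no centring, scaled arrays, the arrays of the comparison alone, a replicate block, array weights, a block for arrays with missing probes, a turned sign for suppressor replicate 1 and each array left out. The pairwise differences between genes used exact sign-flip tests over 3 arrays.

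The 3 genes were named by their spot numbers, the other loci by the annotation, and similar probes as the 2 with the highest Pearson correlation to each gene. All 11 locus tags are in RefSeq's gene table for Chlamydomonas_reinhardtii_v5.5, which gives no products, so the planned split of the other loci by function was not made. The names plastocyanin, PsaD and PsaF come with the choice of the genes. The rule for the members uses no measured value, but members and lists were chosen with earlier results of these data known.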

Additional observations from a re-analysis of the deposited data

How the results depend on the processing

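None of the 3 genes passed the test as reported, and under the alternatives 2 values did. Both were plastocyanin in the indirect ratio with the spot at -13.40 included: -2.09 under the replicate block (limma adjusted p = 0.0355) and -2.998 without suppressor replicate 2 (limma adjusted p = 0.0381). The replicate block rests on replicate numbers, and the labels do not say whether these pair the arrays. Deviations of same-numbered arrays correlated between -0.467 and 0.400, with 2 of 9 pairs over 0.1. Of the 9 arrays, 1 correlated best with its own number. These values cannot decide the pairing. By the labels mcd1-2 is on channel 1 against wild type and on channel 2 against the suppressor, so a shared mcd1-2 culture could give a negative correlation. The replicate block changed no other gene's call. Some means changed sign. For plastocyanin in the suppressor comparison the value was -1.38 as reported and 0.0459 without spots below -10, and then 0.0264 with scaled arrays and 0.22 without centring. For PsaF the sign changed without centring to 0.0518 in the suppressor comparison and 0.19 in the indirect ratio. In mcd1-2 PsaF was at -0.0496 with scaled arrays, -0.16 with array weights and -2.33e-05 with the block for arrays that lack probes. In the difference between mutants PsaF was at -0.0534 with array weights and PsaD at 0.0308 without centring. The cause was not tested.

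Leaving out single arrays moved plastocyanin between -2.29 and 0.29 in the suppressor comparison, between -0.87 and 0.14 in the difference between mutants, between -2.998 and -0.42 in the indirect ratio, and between -0.51 and -0.21 in mcd1-1. PsaD ranged from -0.12 to 0.16 in mcd1-1, from -0.71 to 0.10 in mcd1-2, from -0.70 to 0.11 in the difference and from -1.45 to -0.64 in the indirect ratio. PsaF ranged from -0.15 to 0.12 in mcd1-1, from -0.54 to 0.36 in mcd1-2, from -0.34 to 0.29 in the suppressor comparison, from -0.49 to 0.40 in the difference and from -0.66 to 0.32 in the indirect ratio.

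The count of all probes past the test was 1 in mcd1-1, 4 in mcd1-2, 1 in the suppressor comparison, 1 in the difference and 1 in the indirect ratio. Without spots below -10 it was 2 in mcd1-1 and 2 in the indirect ratio. Without centring it was 0 in the indirect ratio. With scaled arrays it was 3 in mcd1-1, 0 in the suppressor comparison and 2 in the indirect ratio. With the arrays of the comparison alone it was 0 in the suppressor comparison, and under the replicate block 3 in the indirect ratio. Array weights gave 16 in mcd1-1, 8 in mcd1-2, 0 in the suppressor comparison and 0 in the indirect ratio, but limma's estimate of the weights stopped before it converged. The block for arrays that lack probes gave 2 in mcd1-1 and 2 in the indirect ratio. Turning suppressor replicate 1 gave 3 in the suppressor comparison and 2 in the indirect ratio. Leaving out single arrays gave 1 to 3 in mcd1-1, 2 to 7 in mcd1-2, 0 to 3 in the suppressor comparison and 0 to 3 in the indirect ratio. Where limma's count was 0, between 2 and 16 probes had an unadjusted p under 0.05. None of these counts included the 3 genes, except plastocyanin under the 2 settings named first. Leaving out spots below -10 together with another choice was decided after seeing the data.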
